A study of Mus musculus with 2 samples.

Results

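The 40 genes described here are endothelial, pericyte and blood-brain barrier genes, listed by symbol from what they are known to do in vessels, and they were followed in the neural tube of the mouse embryo. All 40 were found among the 43346 mouse genes of the tables. The samples were 2 libraries of total RNA from neural tube of embryonic day 13.5, strain B6NCrl, with embryos of both sexes pooled, and they are the biological replicates 1 and 2 of a single untreated, unmodified group. Each library started from 10 ng of RNA with spike-in RNA added. The labels name a separate tissue sample for each replicate and do not say how many embryos each one held, so the spread between replicates is that of 2 pools. With 1 group there is no contrast of conditions. The questions were which of these genes the tube's vessels showed at this age, in what proportions, and whether the libraries gave the same answer.

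Vessels grow into the neural tube from a plexus around it, drawn by vascular endothelial growth factor (Vegfa) from neural cells, and they begin to acquire barrier properties during embryonic life. Neural Wnt7a and Wnt7b act on the endothelium through Frizzled receptors with Gpr124 (Adgra2) and Reck. Endothelial cells with an active signal seal their contacts with claudin-5, switch on nutrient transporters and efflux pumps, and lose Plvap, the protein of the diaphragms in fenestrated and immature vessels. Pericytes, drawn by endothelial Pdgfb acting on Pdgfrb, cover the new vessels and are needed for the barrier.

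At 1 TPM (transcript abundance on a scale corrected for gene length and library total) or more in both libraries, 39 of the 40 genes were detected, against 61.8% of protein-coding genes. The exception was the efflux pump gene Abcb1a. The median over the 40 genes, Abcb1a included, was 8.71 TPM. It was 4.965 TPM over all 21474 protein-coding genes and 18.5 TPM over the 13263 of them that were detected. Levels ran from 78.1 ± 8.99 TPM (SD, n = 2) for the glucose transporter gene Slc2a1 down to 1.10 ± 0.17 TPM for Abcb1a, and 19 genes reached 10 TPM in both libraries. In the order of their means, the library ranges of 27 of the 39 neighbouring pairs overlapped, so those neighbours did not differ beyond their spread. Among the pairs that stood apart, Cldn5 lay above Egfl7, Slc7a5 above Abcg2 and Abcg2 above Mfsd2a. In bulk tissue, fewer cells of a type and less RNA per cell cannot be told apart.

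**Figure D1:**
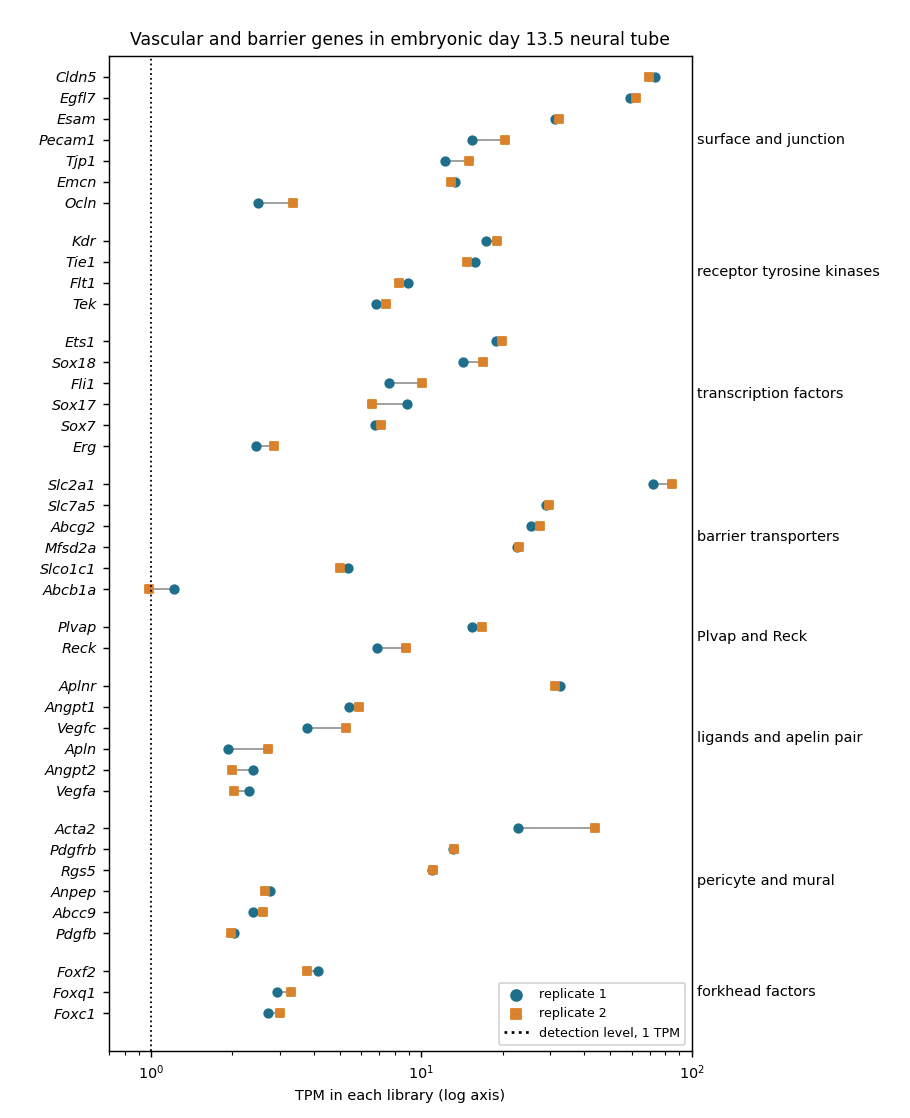
Level of each of the 40 genes in TPM on a log axis, grouped by role, with a circle for replicate 1, a square for replicate 2 and a dotted line at the detection level of 1 TPM. The libraries nearly coincide for most genes, Acta2 has the widest gap, from 22.82 to 43.81 TPM, and Abcb1a is at the detection level.

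Estimated reads totalled 34125110 and 22311849 in replicates 1 and 2. Other endothelial genes, which check the tissue for vessels, were all detected: 16 of 16, from Ramp2 78.3 ± 5.18, Cd34 32.4 ± 2.30 and Eng 22.6 ± 1.85 down to the transcription factor gene Tal1 1.46 ± 0.0707 TPM (SD, n = 2). Their summed level was 249.2 and 248.0 TPM in replicates 1 and 2. Cells other than endothelium can express some of these genes, such as Tal1, and their part was not tested. The libraries differed in other tissues. Summed skeletal muscle markers (10 genes) stood at 158.5 and 299.6 TPM, cartilage markers (6 genes) at 119.6 and 169.6 TPM, and choroid plexus markers (6 genes) at 3.58 and 114.3 TPM in replicates 1 and 2. Most of the choroid plexus sum was Ttr, at 1.93 and 102.67 TPM. The cartilage sum includes Sox9, at 36.78 and 55.46 TPM, which is also a neural progenitor marker. At 2-fold, 0 of the 6 cartilage markers were called, against 2.25% of all genes tested. At any fold and an adjusted p under 0.05, 5 of them were higher in replicate 2, against 12.8%. The choroid plexus markers called higher in replicate 2 were Ttr, Kcne2, Folr1, Clic6 and Otx2, while Kl, the lowest, had 0.33 and 0.39 TPM. Vessels of these tissues, where present, enter the levels below, and their part in them was not tested.

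Junction and surface genes came first. Cldn5 (ENSMUSG00000041378.1, mm10 chromosome 16, 18776847 to 18778262) encodes claudin-5, the main claudin of brain endothelial tight junctions. It stood at 73.08 and 69.51 TPM in replicates 1 and 2. The secreted endothelial factor gene Egfl7 had 58.98 and 62.53 TPM. Esam, an adhesion molecule gene of endothelial contacts, had 31.21 and 32.36 TPM. In these 3 genes the libraries lay within 10% of each other. Cldn5 and Slc2a1 were the highest members, and their library ranges overlapped.

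Pecam1, the gene of the pan-endothelial adhesion molecule CD31, stood at 15.45 and 20.44 TPM in replicates 1 and 2, with 1076 and 900 estimated reads. The sialomucin gene Emcn, which marks capillaries and veins, had 13.30 and 12.88 TPM. The scaffold gene Tjp1 (ZO-1), also active in neuroepithelium, had 12.28 and 14.99 TPM. Ocln, the gene of the tight junction protein occludin, was low at 2.49 and 3.35 TPM. Within each library Cldn5 therefore exceeded Ocln by 29.3-fold and 20.7-fold, which is far more than the spread of either gene.

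Of 10 further tight junction genes, 9 were detected. Jam3 56.5 ± 6.97, Jam2 19.4 ± 1.34 and Cldn12 15.2 ± 3.81 TPM (SD, n = 2) were highest, and the epithelial claudin gene Cldn3 was lowest with 0.61 and 1.80 TPM in replicates 1 and 2. Adhesion molecule genes such as Jam3 are shared with neural cells.

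The receptor tyrosine kinases of endothelium were all detected. The main VEGF receptor gene Kdr had 17.41 and 19.06 TPM in replicates 1 and 2. Its partner Flt1, whose protein binds VEGF tightly and limits its action, had 8.94 and 8.27 TPM. Kdr thus stood 1.95-fold and 2.30-fold above Flt1 at the level of whole genes. Transcripts annotated as noncoding held 51.99% and 30.68% of that Flt1 level in replicates 1 and 2. The angiopoietin receptor gene Tek (Tie2) had 6.79 and 7.39 TPM, and the orphan receptor gene Tie1 had 15.81 and 14.72 TPM, 2.33-fold and 1.99-fold above Tek. Both orders held in each library.

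Transcription factors of endothelium split into the Sox F group and the Ets group. In the Sox F group, Sox18 had 14.22 and 16.93 TPM, Sox17, which is known from arterial endothelium, 8.88 and 6.57 TPM, and Sox7 6.75 and 7.11 TPM. Sox18 was the highest in both libraries, while the ranges of Sox17 and Sox7 overlapped. In the Ets group, Ets1 had 18.96 and 19.90 TPM, Fli1 7.58 and 10.04 TPM, and Erg, the member most confined to endothelium, 2.45 and 2.85 TPM on 99 and 68 reads. Ets1 exceeded Erg by 7.74-fold and 6.98-fold. Ets1 and Fli1 are also active in blood cells and mesenchyme. They lie side by side on chromosome 9 of mm10, Fli1 at 32422204 to 32542861 on the minus strand and Ets1 at 32636221 to 32757820 on the plus strand, 93.4 kb apart.

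Barrier transporters spanned the whole range of the list, from Slc2a1 to Abcb1a. Slc2a1 (ENSMUSG00000028645.6, chromosome 4, 119108711 to 119137983) encodes the glucose transporter GLUT1 and had 71.78 and 84.50 TPM in replicates 1 and 2. Embryonic red cells and neural progenitors also express it, and the summed level of 9 erythroid markers was 10026 and 10262 TPM. The large amino acid transporter gene Slc7a5 had 29.02 and 29.58 TPM, below its heavy-chain partner Slc3a2 at 67.68 and 69.39 TPM. Mfsd2a, the gene of a lipid transporter that holds down vesicle traffic across brain endothelium, had 22.68 and 22.92 TPM. Slco1c1, a thyroid hormone transporter gene of brain endothelium and choroid plexus, had 5.37 and 5.02 TPM. Summed choroid plexus markers were at 3.58 and 114.3 TPM in the same libraries, and their part in the Slco1c1 level was not tested.

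The efflux pumps were unequal. The breast cancer resistance protein gene Abcg2 had 25.44 and 27.44 TPM. The P-glycoprotein gene Abcb1a (ENSMUSG00000040584.8, chromosome 5, 8660077 to 8748575) had 1.22 and 0.98 TPM on 115 and 58 reads. Abcg2 was therefore 20.9-fold and 28.0-fold higher. The part of cells outside vessels in either level was not tested. Abcb1b, the near copy of Abcb1a, was lower still at 0.06 and 0.22 TPM, and reads shared by the pair were divided by the authors' estimate. The posterior standard deviation of that estimate for Abcb1a, about 1 read in each library (0.79 and 1.09), was small beside its count.

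Of 16 other transporter and vesicle traffic genes of the barrier, 14 were detected. Slc3a2 68.5 ± 1.21, the lipoprotein receptor gene Lrp8 39.6 ± 1.99 and the insulin receptor gene Insr 38.6 ± 0.523 TPM (SD, n = 2) led, and Abcb1b and the organic anion transporter gene Slco1a4, at 0.07 and 0.44 TPM on 3 and 7 reads, were below the level. The caveolin gene Cav1, of the vesicles that Mfsd2a is known to hold down, had 26.47 and 32.97 TPM.

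Plvap (ENSMUSG00000034845.5, chromosome 8, 71497765 to 71511752) had 15.44 and 16.72 TPM. Cldn5 exceeded it by 4.73-fold in replicate 1 and 4.16-fold in replicate 2, a log2 ratio of 2.15 ± 0.13 (SD, n = 2). Mfsd2a exceeded it by 1.47-fold and 1.37-fold. Choroid plexus vessels are fenestrated and carry Plvap, and the choroid plexus marker Ttr had 1.93 and 102.67 TPM in replicates 1 and 2. Plvap itself differed by a log2 ratio of 0.06 ± 0.09 (counting SE). Tissues around the tube also hold Plvap-positive vessels, and the part of these vessels and of choroid plexus in its level was not tested.

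Taking the VE-cadherin gene Cdh5 (13.39 and 14.45 TPM) as a measure of endothelium in each library, Cldn5 stood at 5.46 and 4.81 times its level, Abcg2 at 1.90 in both, Mfsd2a at 1.69 and 1.59, and Plvap at 1.15 and 1.16 times. Slco1c1 stood at 0.401 and 0.347 times, Ocln at 0.186 and 0.232 times, and Abcb1a at 0.0911 and 0.0678 times. Slc2a1 stood at 5.36 and 5.85 times and Tjp1 at 0.917 and 1.04 times. Slc2a1 and Cldn5 changed places between the libraries, and the order Abcg2, Mfsd2a, Plvap, Tjp1, Slco1c1, Ocln, Abcb1a was the same in each. Cells outside vessels can express several of these genes, and their part in the levels was not tested.

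**Figure D2:**
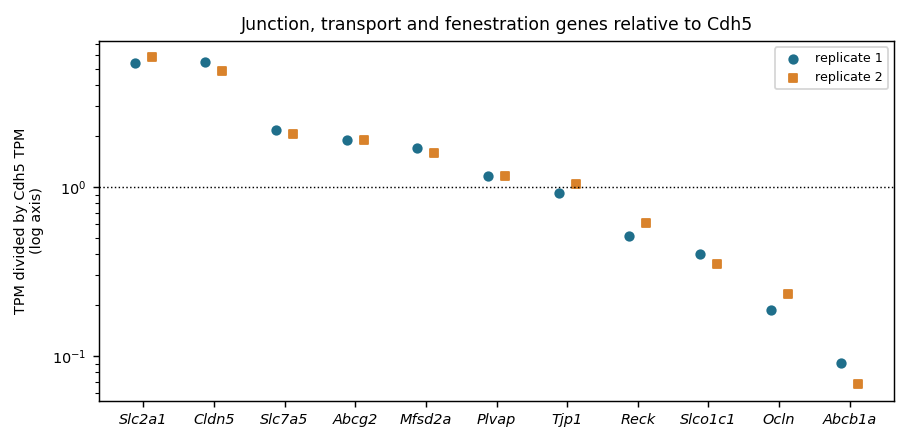
Level of junction, transport and fenestration genes divided by that of Cdh5 in the same library, on a log axis, with a circle for replicate 1 and a square for replicate 2. Cldn5 and Slc2a1 lie near 5 times Cdh5, Plvap just above the dotted line of equal level (1.15 and 1.16), and Abcb1a lowest, below 0.1 in both libraries.

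Ligand, receptor and target genes of the Wnt signal that induces the barrier were detected. Reck, the Wnt7 coreceptor gene among the members, had 6.83 and 8.78 TPM in replicates 1 and 2. It is not confined to vessels, being known also from fibroblasts and neural progenitors. Of 14 other genes of Wnt, norrin and Gpr124 signalling, 14 were detected. The shared effector gene Ctnnb1 259.2 ± 30.9, the Frizzled partner gene Tspan12 58.4 ± 1.29 and the death receptor gene Tnfrsf21 56.6 ± 3.88 TPM (SD, n = 2) were highest and the coreceptor gene Lrp5 1.32 ± 0.198 TPM was lowest. The ligand gene Wnt7b had 23.92 and 26.62 TPM and Wnt7a 7.32 and 7.29 TPM. On the receptor side levels were mixed. Adgra2 at 1.69 and 1.75 TPM and Fzd4 at 1.74 and 1.81 TPM lay below both ligand genes. The coreceptor gene Lrp6, at 7.94 and 8.73 TPM, lay above Wnt7a in both libraries, and Tspan12 lay above Wnt7b. Among genes known as targets of the signal, Lef1 had 6.12 and 9.87 TPM, Axin2 6.59 and 8.07 TPM and Apcdd1 5.91 and 5.79 TPM. Lef1 was 1.57-fold higher in replicate 2 (adjusted p = 8.29e-10, exact binomial test). At any fold and an adjusted p under 0.05, 4 of the 14 genes (Lef1, Lrp5, Lrp6 and Ctnnb1) were higher in replicate 2. The share over all genes tested was 12.8%. Lower in replicate 2 were 0 of the 14, against 11.8% of all genes tested. Neural cells express many of these genes, and their part was not tested.

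Angiogenic ligands were among the lowest members. Vegfa (ENSMUSG00000023951.12, chromosome 17, 46016993 to 46032369) had 2.31 and 2.02 TPM in replicates 1 and 2, on 150 and 84 reads. Vegfc, known for lymphatic growth, had 3.77 and 5.25 TPM. The Tek agonist gene Angpt1 had 5.38 and 5.89 TPM, and Angpt2, a context-dependent antagonist released by sprouting endothelium, 2.39 and 2.00 TPM, so that Angpt1 stood 2.25-fold and 2.95-fold higher. The related ligand gene Vegfb, at 29.52 and 28.36 TPM, lay 12.8-fold and 14.0-fold above Vegfa. The apelin receptor gene Aplnr, of venous and sprouting endothelium, had 32.68 and 31.19 TPM against 1.93 and 2.70 TPM for its ligand gene Apln, a tip cell marker, 16.9-fold and 11.6-fold less. Aplnr was thus the highest receptor gene of the list.

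Of 12 other sprouting and hypoxia genes, 12 were detected, led by the hypoxia factor gene Hif1a 71.9 ± 6.68, Vegfb 28.9 ± 0.82 and the glycolysis regulator gene Pfkfb3 21.2 ± 1.41 TPM (SD, n = 2), with the tip cell gene Esm1 1.20 ± 0.127 TPM lowest. Of 16 arterial and venous genes, 14 were detected. Nrp1 72.4 ± 1.80, the venous factor gene Nr2f2 47.5 ± 0.891 and the Notch target Hey1 27.0 ± 1.72 TPM were highest, all of them shared with neural cells, and the arterial kinase gene Bmx was lowest at 0.16 ± 0.099 TPM.

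Vegfa RNA is spliced into forms that differ in coding exons 6 and 7, which carry the heparin-binding stretches that hold the protein near its source. The form without both is the freely diffusing VEGF120, exon 7 gives VEGF164, and both exons in full give VEGF188. The sequences of both exons are shown because they are what sets these forms apart. They are from the GENCODE M21 transcript ENSMUST00000142351.4, chr17:46022277-46022348 and chr17:46020991-46021122 on the minus strand of mm10. Capitals in exon 6 mark the 18 bases that a shorter form of that exon lacks.
Vegfa exon 6: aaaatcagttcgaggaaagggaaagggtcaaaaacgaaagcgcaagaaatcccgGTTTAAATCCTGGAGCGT
Vegfa exon 7: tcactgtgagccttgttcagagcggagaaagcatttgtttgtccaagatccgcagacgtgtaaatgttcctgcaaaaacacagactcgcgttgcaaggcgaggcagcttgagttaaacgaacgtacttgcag

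A read that crosses the end of exon 5 shows which exon follows it. The joins are printed as 15 bases of exon 5 in lower case and the 15 bases that follow in capitals, for exon 8 (VEGF120), exon 7 (VEGF164) and exon 6. The join to exon 6 is shared by VEGF188, by a form with exon 6 alone and by a form with the shorter exon 6 and exon 7. It therefore does not tell those apart. Exon 5 ends at chr17:46024065-46024079 in each.
Exon 5 to exon 8: aacaaagccagaaaaATGTGACAAGCCAAG
Exon 5 to exon 7: aacaaagccagaaaaTCACTGTGAGCCTTG
Exon 5 to exon 6: aacaaagccagaaaaAAAATCAGTTCGAGG

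Of the 11 annotated Vegfa transcripts, the deposited isoform percent (the share of the gene's TPM given to a transcript) favoured those with neither exon. The 2 such transcripts, ENSMUST00000024747.9 and ENSMUST00000167860.3, held 84.66% in replicate 1 and 74.48% in replicate 2, a mean of 79.6 ± 7.20% (SD, n = 2). The transcript with exon 7 alone, ENSMUST00000071648.7, held 6.18% and 20.00%. The 3 transcripts with exon 6 were listed at 0 reads in both libraries. These zeros come from the authors' division of shared reads, and the longest of the 3, ENSMUST00000142351.4, had posterior standard deviations of 4.10 and 3.25 reads, so a few reads of it are not excluded. The remaining 9.16% and 5.52% were transcripts with retained introns.

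These shares rest on few reads and on an uncertain division. The coding transcript with the highest mean, ENSMUST00000167860.3, held 60.73% and 35.06%, and its 102.19 and 32.81 estimated reads had posterior standard deviations of 26.3 and 14.5 reads. For the exon 7 transcript the 10.81 and 19.45 reads had posterior standard deviations of 21.0 and 14.0. In the percentages computed by the authors from posterior means, which give every transcript some share, the forms with neither exon held 53.45% and 41.02%. On that scale retained introns held 22.29% and 24.72%, exon 7 alone 12.05% and 17.76%, exons 6 and 7 together 7.09% and 9.67%, and exon 6 alone 5.11% and 6.82%. The forms with neither exon were the largest class in each library on both scales, and their share moved from 79.6 to 47.2 ± 8.79%.

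Flt1 (ENSMUSG00000029648.9, chromosome 5, 147561604 to 147726011) makes a full-length receptor with 30 coding exons and a soluble form, a VEGF trap, that reads on past coding exon 13 and stops. The junction is shown because it divides the receptor from the trap. Lower case marks the last 15 bases of exon 13, at chr5:147639225-147639239 on the minus strand of mm10, and capitals the 15 bases that follow in each form.
Flt1 full-length: aagttctcgttagagATTCGGAAGCGCCAC
Flt1 soluble: aagttctcgttagagGTGAGCACTGCGGCA
The coding tail of the soluble form alone, chr5:147639133-147639224, is 92 bases long, and its capitals mark the GT that serves as splice site in the full-length form.
Flt1 soluble tail: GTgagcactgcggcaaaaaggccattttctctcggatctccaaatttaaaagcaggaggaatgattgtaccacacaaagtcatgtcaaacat

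The full-length transcript, ENSMUST00000031653.7, held 23.31% of Flt1 TPM in replicate 1 and 37.37% in replicate 2, and the soluble transcript, ENSMUST00000110529.3, held 24.69% and 31.95%. Their estimated reads were 320.3 and 300.87 for the receptor and 309.17 and 234.41 for the trap, with posterior standard deviations of 12.4 to 14.6 reads. Among coding Flt1 TPM the receptor therefore held 48.5% and 53.9%, a mean of 51.2 ± 3.85% (SD, n = 2), and the sign of its difference from the trap was not the same in the libraries. The rest, 51.99% and 30.68%, went to transcripts annotated as noncoding, mainly the shorter ENSMUST00000031652.3.

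**Figure D3:**
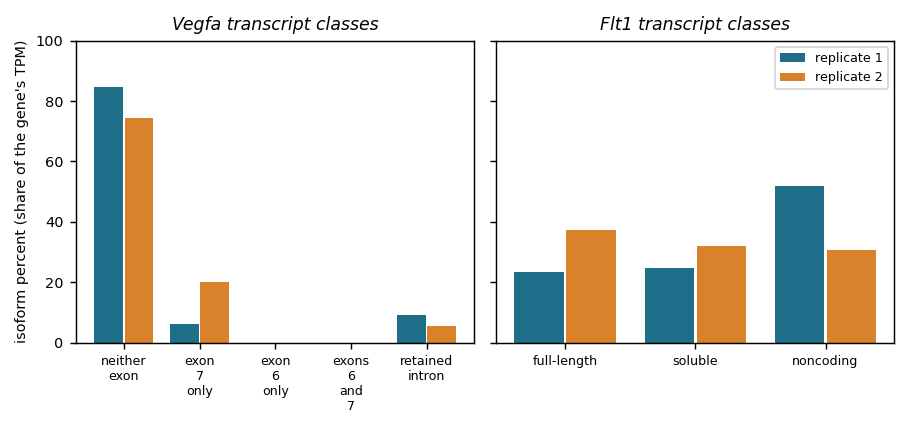
Isoform percent, the share of the gene's TPM, of transcript classes of Vegfa (left) and Flt1 (right), with a bar for each library and axes that start at 0. Vegfa forms with neither exon 6 nor exon 7 hold 84.66% and 74.48%, and full-length and soluble Flt1 are of similar height in each library.

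Pericyte and mural genes other than Acta2 had close levels in the libraries. Pdgfrb, the pericyte receptor gene, had 13.11 and 13.22 TPM in replicates 1 and 2, on 1574 and 1006 reads. Its ligand gene Pdgfb, made by endothelium, had 2.02 and 1.98 TPM. Pdgfrb thus stood 6.49-fold and 6.68-fold above its ligand. Rgs5, a signalling regulator gene of pericytes, had 10.91 and 11.07 TPM, and Abcc9, the sulfonylurea receptor gene of the pericyte potassium channel, 2.38 and 2.59 TPM. The aminopeptidase gene Anpep (CD13), also active in meningeal fibroblasts, had 2.75 and 2.65 TPM. Relative to Cdh5, Pdgfrb stood at 0.979 and 0.915 times and Rgs5 at 0.815 and 0.766 times. These are ratios of RNA levels in bulk tissue, not of cell numbers. Meningeal and fibroblast markers summed to 987.9 and 1054 TPM in replicates 1 and 2. The part of such cells in the Pdgfrb and Rgs5 levels was not tested.

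Of 12 other pericyte genes, 11 were detected. Vtn 143.8 ± 7.83, Ebf1 137.9 ± 0.0283 and Cd248 21.0 ± 1.20 TPM (SD, n = 2) were highest and the brain pericyte gene Atp13a5 0.59 ± 0.127 TPM was lowest. Ebf1 is also a neuronal gene. The part of cells other than pericytes in the levels of these 12 genes, Vtn and Cd248 included, was not tested. Of 10 genes of pericyte signalling, 8 were detected, led by Itgav 26.0 ± 1.63, Angptl2 14.0 ± 0.488 and Pdgfa 13.9 ± 1.12 TPM, with Tgfb1 0.805 ± 0.0919 TPM lowest.

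Acta2 (ENSMUSG00000035783.8, chromosome 19, 34241090 to 34255590), the smooth muscle actin gene that arteriolar mural cells and early skeletal muscle share, had 22.82 and 43.81 TPM in replicates 1 and 2. Replicate 2 was higher by a log2 ratio of 0.88 ± 0.07 (counting SE), which is 1.84-fold, with an adjusted p of 2.89e-38 by the exact binomial test. Of 8 contractile markers of smooth muscle 4 were detected, Smtn 16.6 ± 1.32, Tagln 6.43 ± 0.594, Des 4.14 ± 2.40 and Mylk 2.41 ± 0.382 TPM (SD, n = 2). The defining marker Myh11, at 0.38 and 0.46 TPM, and Lmod1, at 0.23 and 0.25 TPM, were below the detection level. Tagln had 6.01 and 6.85 TPM, whereas Des, which skeletal muscle also expresses, had 2.45 and 5.84 TPM and was called higher in replicate 2. Of the 10 skeletal muscle markers, 8 were called higher in replicate 2, at ratios of 1.14 to 2.02 on the log2 scale, namely Acta1 (19.53 and 45.66 TPM), Tnnt1, Tnni1, Myog, Mylpf, Myl1, Myh3 and Actn2. The highest marker, Actc1, had 75.32 and 81.15 TPM, and the lowest, Ckm, 0.73 and 0.76 TPM. Their part in the Acta2 level was not tested.

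Forkhead factors of vessels and mural cells were low and close together. Foxf2, a pericyte factor gene needed for the barrier, had 4.14 and 3.79 TPM. Foxq1 had 2.93 and 3.29 TPM. Foxc1, which acts in meninges and mural cells, had 2.70 and 3.01 TPM, in a tissue whose 10 meningeal and fibroblast markers summed to 987.9 and 1054 TPM. The 3 genes lie in a row on the plus strand of chromosome 13 of mm10, Foxq1 at 31556134 to 31560976, Foxf2 at 31625816 to 31631403 and Foxc1 at 31806633 to 31812476, with gaps of 64.8 kb and 175.2 kb. Foxf2 lay above Foxq1 in every library, and Foxq1 and Foxc1 overlapped.

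The rounded estimated reads of the libraries were then compared for every gene with the exact binomial test (two-sided), which carries counting error only and so compares these libraries with counting noise. Calls needed a 2-fold difference and an adjusted p below 0.05. By that rule 0 of the 40 genes were called, against 2.25% of the 17428 genes tested, and DESeq2 scaling also gave 0. The unadjusted p was under 0.05 for 12 members and for 6028 of all genes tested. The median log2 ratio of replicate 2 over replicate 1 was 0.06 over the members and 0.00 over all genes tested. The median size of that ratio, whatever its sign, was 0.12 over the members and 0.14 over all genes tested. Acta2 alone among the members passed 1.5-fold.

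At any fold, 6 members were higher in replicate 2 at an adjusted p under 0.05, against 12.8% of all genes tested, and 3 were lower, against 11.8%. The higher ones were Acta2, Slc2a1, Pecam1, Tjp1, Fli1 and Reck. Pecam1 had a log2 ratio of 0.34 ± 0.07 (counting SE; adjusted p = 3.91e-06, exact binomial test) and Slc2a1 0.18 ± 0.03 (adjusted p = 2.53e-06, exact binomial test). The lower ones were Cldn5, Tie1 and Sox17, of which Sox17 moved most, at -0.35 ± 0.14 (adjusted p = 0.0463, exact binomial test). Endothelial genes thus lay on both sides of equality, with Pecam1 higher in replicate 2, Cldn5 and Tie1 lower, and Cdh5 at 0.05 ± 0.07. The 40 genes include 5 with fewer than 100 reads in a library (Erg, Angpt2, Vegfa, Pdgfb and Abcb1a), where counting error was widest, up to 0.23 on the log2 scale.

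**Figure D4:**
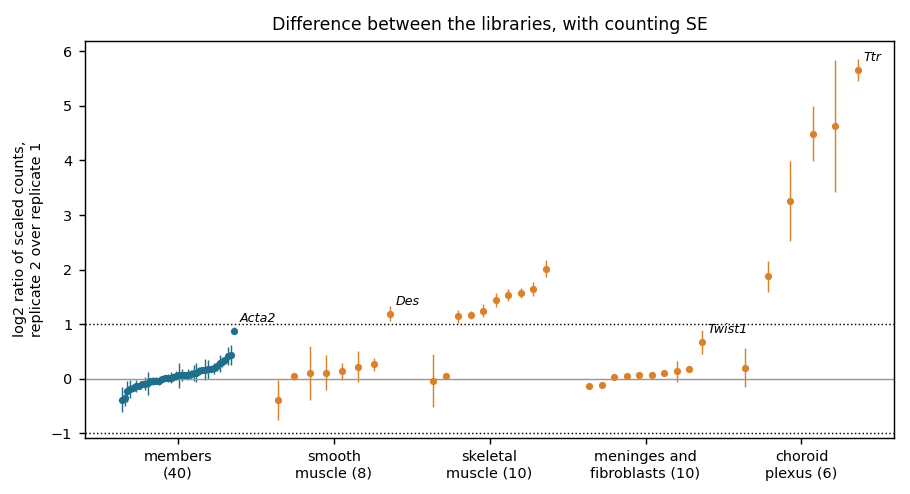
Log2 ratio of scaled counts, replicate 2 over replicate 1, for the 40 members (blue) and for markers of smooth muscle, skeletal muscle, meninges and choroid plexus (orange), with bars of counting SE and dotted lines at 2-fold. Acta2 (0.88) is the highest member, inside the 2-fold lines, while 8 of 10 skeletal muscle markers and 5 of 6 choroid plexus markers lie above them.

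Of 103 other vascular pathway genes tested, 1 was called at 2-fold, against 2.25% of all genes tested. It was Cldn3, on 16 and 30 reads in replicates 1 and 2. At any fold, 15 of the 103 were higher in replicate 2, against 12.8% of all genes tested, and 5 were lower, against 11.8%. Ratios of TPM and of scaled counts pointed opposite ways for 7 members. Flt1 had a log2 ratio of 0.14 by counts and -0.11 by TPM, and its shorter noncoding transcript was given 180.88 reads in replicate 1 and 54.19 in replicate 2. Angpt2 had 0.16 by counts and -0.26 by TPM, and Anpep 0.17 and -0.05. In Mfsd2a, Pdgfrb, Rgs5 and Esam both ratios were within 0.06 of 0. Not 1 of the 7 passed the test.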

How the data were processed

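Total RNA of 2 neural tube libraries was analysed from the authors' gene and transcript tables, built on mm10 with annotation M4, per the deposited notes. The aligner, quantifier and strand setting were not given in the sources used here. The deposited expected counts are estimated reads per feature, not normalized. The deposited TPM are scaled over all 69691 features, of which 96 spike-ins held 13.0% and 12.6% in replicates 1 and 2. The deposited FPKM served as an alternative. The deposited isoform percent is a transcript's share of its gene's TPM, and the deposited posterior counts are a score of the estimate's uncertainty, per the file headers.

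Symbols, coordinates and coding exons came from GENCODE M21 (GRCm38, mm10), matched on identifiers without version, which named 42462 of 43346 mouse genes. The erythroid marker Ahsp did not match. Printed sequences were cut from M21 transcripts by annotated exon.

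Expected counts were rounded and scaled by edgeR 4.0.16 TMM (R 4.3.3), and DESeq2 1.42.0 size factors were an alternative. Genes averaging at least 10 counts entered the exact binomial test, with Benjamini-Hochberg adjustment over all of them. Log2 ratios add 0.5 to each count. The test was run on simulated data with counting noise alone, which cannot show how it behaves with variation between pools. Python 3.11.15, pandas 2.3.3 and SciPy 1.17.1 did the rest. A count of 0 was taken to allow 3 counts, and floors and counting errors cover counting error only.

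The 40 members, the lists and the tests were chosen with earlier results of these data known. Named genes are all members and, of each other list, the 3 highest, the lowest and those called between libraries. This rule was applied in full to the vascular lists and to muscle and choroid plexus markers. Other marker lists are given by sums and counts where a result touches them, or not reported here. Other genes were named after their values were seen.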

Additional observations from a re-analysis of the deposited data

How the results depend on the processing

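Each result was recomputed under the alternatives listed for it. The number of members detected, 39, ran from 37 at 2 TPM to 40, and from 39 to 40 when a replicate was left out. Their median of 8.71 TPM became 9.99 TPM when TPM were rescaled to mouse genes alone, and ran from 8.91 to 9.41 TPM with a replicate left out. The log2 ratio of Cldn5 over Plvap, 2.15, kept its size, from 2.06 to 2.24 with a replicate left out. The share of the top coding Vegfa transcript, 47.9%, fell to 25.6% with posterior means and ran from 35.1% to 60.7% with a replicate left out. The Flt1 full-length share, 30.3%, was 45.1% of expected counts, where transcript length is not taken into account, and ran from 23.3% to 37.4%. Members called between the libraries, 0, became 9 with no fold minimum and 1 at 1.5-fold, and all genes called, 392, became 4279 and 709. DESeq2 size factors gave 0 and 392, and no count filter gave 0 and 504. No paired analysis was possible because there is 1 group. Depth limits Vegfa, Abcb1a, Erg, Pdgfb and Angpt2 most, each with under 100 reads in replicate 2.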

Other observations

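Lymphatic endothelial markers and tissue macrophages were measured in the same libraries. All 4 lymphatic markers were detected: Pdpn 53.5 ± 7.72, Prox1 10.3 ± 1.47, Lyve1 5.57 ± 0.339 and the VEGF-C receptor gene Flt4 1.89 ± 0.134 TPM (SD, n = 2). Pdpn, Prox1 and Lyve1 are also active in meningeal cells, neural progenitors and macrophages respectively. The part of cells other than lymphatic endothelium in the levels of all 4 genes, Flt4 included, was not tested. Of the 10 microglia and macrophage markers, 10 were detected, with sums of 176.4 and 167.5 TPM in replicates 1 and 2 and the complement gene C1qb highest at 37.0 ± 1.37 TPM. Macrophages are known to help join vessel sprouts in the embryonic brain.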
